A study of Mus musculus with 32 samples.

Results

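Myc is a transcription factor that binds DNA as a pair with Max and drives genes for ribosome assembly, nucleotide and polyamine synthesis and cell cycle entry. In the thymus it is high in dividing precursors, and p53, the protein that DNA breaks stabilise, is known to hold it down. Described here are Myc and 6 genes that are commonly listed among its targets. They are Bcat1, the cytosolic aminotransferase of branched-chain amino acids; Odc1, the rate-limiting enzyme of polyamine synthesis; Ncl, Npm1 and Nolc1, the nucleolar proteins nucleolin, nucleophosmin and nucleolar phosphoprotein p130; and Cdk4, the cyclin D kinase of the G1 phase. These 7 of the 20537 genes tested were found by the gene names on the arrays. They were chosen by the measured fall of Myc and Bcat1 after irradiation on these same arrays, so their change after irradiation is described without a test.

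Thymocytes came from C57Bl/6 mice aged 6 weeks, and each of the 32 one-colour arrays held RNA of a pool of 2 mice. In mice labelled P72, codon 72 of p53 encodes proline, and in R72 it encodes arginine; how the alleles were made was not given in the sources used here. They were untreated (0 h) or were sampled 2 h or 4 h after 5 Gy of gamma radiation, with 4 arrays for each of these 6 groups, which the labels call independent experiments. Mice labelled p53+/+ and p53-/- gave 2 untreated arrays each and 1 array each at 2 h and at 4 h after the same dose. A level below is log2 of the processed signal minus the 75th percentile of its array, so that 0 is that percentile and each step of 1 is a doubling; levels are compared within a gene and not between genes.

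All 12 thymocyte markers were detected on the 32 arrays, each of which had 52.2% to 71.2% of its probes well above background. The transcript of Cdkn1a, a p53 target, was higher by 4.21 ± 0.24 (SE) on the log2 scale in P72 and by 3.33 ± 0.24 in R72 at 2 h. In p53+/+ it was 4.53 ± 0.33 higher after irradiation, and in p53-/- 0.99 ± 0.33 higher (limma, adjusted p = 0.173). The transcript of Trp53 did not pass the test between p53+/+ and p53-/- after irradiation (0.52 ± 0.24, limma, adjusted p = 0.119), and whether its probe lies inside the deleted part is not given in the sources used here. The labels give 1 male and 1 female to each pool, and the arrays go against that. Xist, the X-inactivation RNA, lay between -7.92 and -3.73 in P72 and R72 replicates 1 and 3 and between 5.11 and 5.83 in replicates 2 and 4, with Y-linked genes the other way round. It was -1.45 and -0.88 on the untreated p53+/+ arrays, 5.50 on both irradiated ones, and at or below -7.20 on all p53-/- arrays. In P72 and R72 each group held both kinds of replicate, and none of the 7 genes differed between them (50 of 20537 genes passed the test; Myc differed by 0.25 ± 0.19 and Bcat1 by 0.23 ± 0.24). In p53+/+ this split and irradiation cannot be told apart. Among the irradiated arrays the split also runs with p53+/+ against p53-/-, and there it cannot be told apart from genotype.

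The 7 genes were read by 17 probes, of which 16 passed the background filter, and the probe of a gene with the highest mean stood for it. Positions are those of the array files, in build mm7. The chosen probes lay at chr15:62064256-62064316 for Myc, chr6:145090030-145090089 for Bcat1, chr12:17601268-17601326 for Odc1, chr1:86251703-86252093 for Ncl, chr11:33104575-33104634 for Npm1, chr19:45979846-45979905 for Nolc1 and chr10:126562389-126562448 for Cdk4. No annotation of that build was used here, so the exon or untranslated region under a probe is not stated. The sequences of probes for 4 of the genes are shown because each level is the signal of such a stretch; the one for Myc is the probe at chr15:62063665-62063724 and the one for Ncl that at chr1:86252054-86252113, which are not the chosen probes of these genes, and no base is singled out.
Myc: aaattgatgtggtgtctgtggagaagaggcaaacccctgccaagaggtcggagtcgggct
Ncl: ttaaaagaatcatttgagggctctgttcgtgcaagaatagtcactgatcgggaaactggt
Nolc1: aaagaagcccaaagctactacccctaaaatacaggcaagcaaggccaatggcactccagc
Cdk4: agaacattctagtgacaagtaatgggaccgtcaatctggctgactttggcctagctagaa

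Myc was lower in P72 thymocytes at 2 h and stayed low at 4 h. The untreated P72 levels were 1.27, 1.55, 1.62 and 2.31. At 2 h they were -0.32, -0.24, 0.50 and -0.04, and at 4 h 0.16, 0.00, 0.03 and 0.85. No irradiated P72 array reached the lowest untreated one, and the 2 h and 4 h arrays overlapped. The fitted difference was -1.71 ± 0.33 on the log2 scale at 2 h (3.28-fold lower) and -1.43 ± 0.33 at 4 h (2.69-fold lower). From 2 h to 4 h it was 0.29 ± 0.33, with an interval that includes 0.

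In R72 the untreated Myc levels were 0.97, 1.24, 1.66 and 1.97. At 2 h they were -0.08, -0.51, 0.41 and 1.23, and at 4 h -0.17, 0.03, 0.22 and 0.82. The R72 arrays at 2 h overlapped the untreated ones through replicate 4, while the arrays at 4 h did not. The difference was -1.20 ± 0.33 at 2 h and -1.23 ± 0.33 at 4 h. Without R72 2 h replicate 4 the first of these was -1.52. All 3 Myc probes gave lower values in both lines and at both times, from -1.74 to -0.69. On the slides that held untreated and irradiated arrays of a line together, Myc was lower after irradiation by 1.25 to 1.93 in P72, over 2 slides, and in R72 the difference was -1.75 to -0.74, over 4 slides.

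Bcat1, whose spots were above background on 25 of the 32 arrays, was lower at 2 h and at 4 h in both lines. The untreated P72 levels were -2.18, -1.60, -1.73 and -1.10, those at 2 h -4.24, -4.31, -3.44 and -3.76, and those at 4 h -5.86, -5.77, -4.41 and -5.15. In R72 they were -3.06, -1.38, -1.36 and -1.52 untreated, -4.63, -4.63, -3.87 and -3.01 at 2 h, and -5.92, -5.05, -5.03 and -5.65 at 4 h. Every P72 array at 2 h lay below the untreated ones, and the lowest untreated R72 array, replicate 1, lay below the highest at 2 h. By 4 h no array of either line overlapped the untreated ones.

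The fitted difference of Bcat1 was -2.28 ± 0.42 in P72 and -2.20 ± 0.42 in R72 at 2 h, and -3.64 ± 0.42 and -3.58 ± 0.42 at 4 h. No fold is given at 4 h, since these values rest on dim spots. At 4 h Bcat1 was well above background on 1 of 4 arrays in each line, and its other probe, on 3 of 32 arrays in all, did not pass the filter. With the normexp background correction the difference at 4 h was -0.76 in P72 and -1.02 in R72, no wider than that of Myc, and that from 2 h to 4 h turned from -1.36 to 0.24 in P72 and from -1.38 to 0.32 in R72. In the authors' deposited value table the difference at 4 h was -2.15 and -2.00. The direction against untreated was the same under each of these; the size at 4 h and the further drop after 2 h are not settled.

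**Figure D1:**
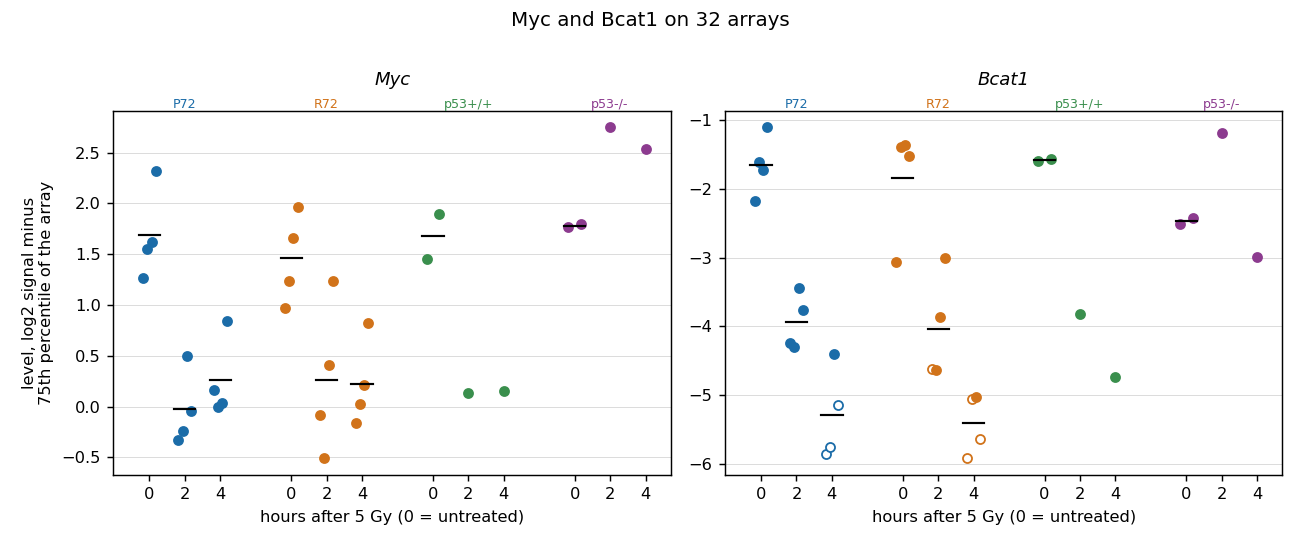
Levels of Myc (left) and Bcat1 (right) on each of the 32 arrays, on the log2 scale relative to the array's 75th percentile, against hours after 5 Gy for P72, R72, p53+/+ and p53-/- thymocytes. Points are arrays, open points are spots not well above background and bars are group means; Myc on the irradiated p53-/- arrays was 2.75 and 2.54, above every other array.

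Odc1, the other metabolic enzyme, overlapped the untreated level in P72, was lower in R72 at 4 h and was higher in irradiated p53+/+ thymocytes. In P72 its levels were 3.66, 3.81, 4.01 and 4.26 untreated and 3.74, 3.73, 3.94 and 3.94 at 4 h, so that the groups overlapped throughout, and the difference was -0.10 ± 0.16. In R72 they were 3.53, 3.73, 4.09 and 4.04 untreated, 3.61, 3.17, 3.70 and 4.07 at 2 h, and 3.45, 3.52, 3.45 and 3.33 at 4 h. The R72 arrays at 4 h all lay below the untreated ones, with a difference of -0.41 ± 0.16. The 3 Odc1 probes gave -0.15 to -0.05 in P72 and -0.44 to -0.31 in R72 at that time. In p53+/+, with 2 h and 4 h averaged, irradiated minus untreated was 0.46 ± 0.22 on the chosen probe, and 0.40 ± 0.14 and 0.64 ± 0.15 on the others.

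The nucleolar genes were also lower at 4 h, Nolc1 by more than Ncl and Npm1. Ncl, which binds pre-ribosomal RNA, lay at 6.03, 6.03, 6.04 and 6.04 on the untreated P72 arrays and at 5.44, 5.37, 5.28 and 5.06 at 4 h. In R72 it was 5.74, 5.97, 6.11 and 6.13 untreated and 5.34, 5.35, 5.47 and 5.35 at 4 h. The groups did not overlap in either line, and the difference at 4 h was -0.74 ± 0.09 in P72 and -0.61 ± 0.09 in R72. All 4 Ncl probes were lower, by 0.67 to 1.12 in P72.

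Nolc1, a chaperone of small nucleolar ribonucleoproteins, was 1.37, 1.37, 1.54 and 1.58 in untreated P72 and 0.45, 0.25, 0.49 and 0.26 at 4 h. In R72 it was 1.28, 1.27, 1.49 and 1.50 untreated and 0.43, 0.03, 0.45 and 0.22 at 4 h. On this chosen probe the difference at 4 h was -1.10 ± 0.10 in both lines. The other Nolc1 probe gave -1.36 ± 0.16 in P72 and -0.86 ± 0.16 in R72. Npm1, a histone and ribosome chaperone, was 5.32, 5.35, 5.78 and 5.92 in untreated P72 and 4.73, 4.79, 5.12 and 5.19 at 4 h, and 5.31, 5.71, 5.60 and 5.66 against 5.13, 5.11, 5.02 and 5.21 in R72. That is a difference of -0.64 ± 0.15 in P72 and -0.46 ± 0.15 in R72, the smallest of the nucleolar genes, with no overlap at 4 h in either line.

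Cdk4 stepped down at each time. Its levels ran from 2.29 to 2.59 on the untreated P72 arrays, from 1.64 to 1.84 at 2 h and from 1.03 to 1.28 at 4 h, 3 steps without overlap. In R72 they ran from 2.31 to 2.40, from 1.52 to 1.88 and from 1.13 to 1.49, so that no irradiated array reached an untreated one. The difference was -0.69 ± 0.09 in P72 and -0.73 ± 0.09 in R72 at 2 h, and -1.27 ± 0.09 and -1.07 ± 0.09 at 4 h. At 4 h that is 2.41-fold and 2.10-fold lower.

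**Figure D2:**
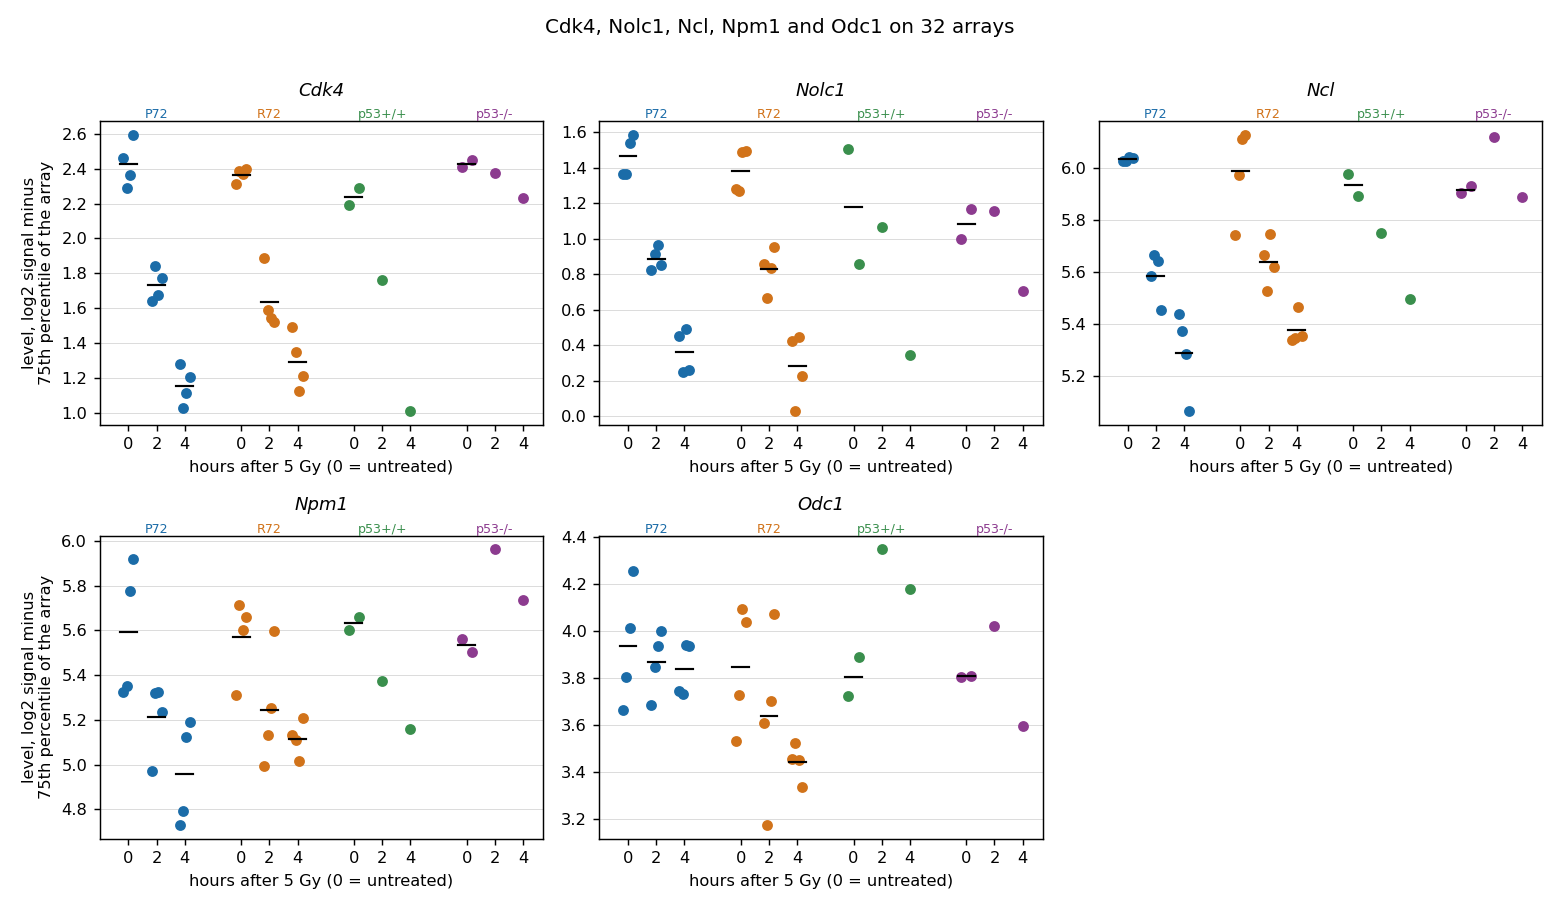
Levels of Cdk4, Nolc1, Ncl, Npm1 and Odc1 on each of the 32 arrays, drawn as in the plot of Myc and Bcat1: log2 level relative to the array's 75th percentile against hours after 5 Gy. Cdk4 steps down from 0 h to 4 h in P72, R72 and p53+/+ and lies between 2.23 and 2.45 on the p53-/- arrays, while Odc1 is higher on the irradiated p53+/+ arrays than on the untreated ones.

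Cdk4 is the gene of the group whose promoter window held the canonical E-box, CACGTG, the hexamer that Myc and Max bind and that reads the same on both strands. RefSeq promoter windows of build GRCm38.p6, each 300 bases long from 250 before to 50 after a transcript start, were listed for 5 of the 7 genes (not for Myc or Npm1). The Cdk4 window holds 4 copies, at -172, -118, -98 and -11 from the start, and the windows of Bcat1, Odc1, Ncl and Nolc1 hold none. Of 32851 windows, 7.15% hold at least 1 copy and 8 windows (0.0244%) hold at least 4. A match describes the letters and is not a measured binding site. The 250 bases before the start at chr10:127063285-127063534, plus strand, read as follows, with the E-boxes in capitals.
Cdk4: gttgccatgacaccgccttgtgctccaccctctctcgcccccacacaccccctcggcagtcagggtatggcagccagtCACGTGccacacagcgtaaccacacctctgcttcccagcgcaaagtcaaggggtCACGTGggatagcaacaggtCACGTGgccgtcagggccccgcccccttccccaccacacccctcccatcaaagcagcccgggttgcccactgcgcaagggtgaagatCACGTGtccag

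By the adjusted p of 0.05 from the limma fit over all genes, 5 of the 7 genes were lower in P72 at 2 h, where 4.81% of all genes were, and 6 at 4 h, where 20.7% were. In R72 the counts were 5 at 2 h (6.87% of all genes) and 7 at 4 h (16%). From 2 h to 4 h, 4 were lower in P72 (10.6%) and 4 in R72 (4.86%). None was higher, where 9.63%, 35.9%, 6.16% and 28.8% of all genes were at these 4 points. Nothing is read from these counts, since the genes were chosen for the fall. The median difference of the 7 at 4 h was -1.10 in P72 and -1.07 in R72, beside 0.11 and 0.09 over all genes. That baseline depends on the scaling: with arrays set to equal medians, the median over all genes was -0.52 in P72 and -0.38 in R72 at 4 h, and the share of called genes that were higher went from 63.4% to 26.8% in P72 and from 64.2% to 25.8% in R72. Relative to the median of all genes, Myc stood at -1.54 in P72 and -1.33 in R72 at 4 h, a distance that is the same under both scalings by construction, and at -1.38 and -1.19 after quantile normalization. These are pools of thymocytes, in which fewer cells of a type and less RNA per cell cannot be told apart.

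**Figure D3:**
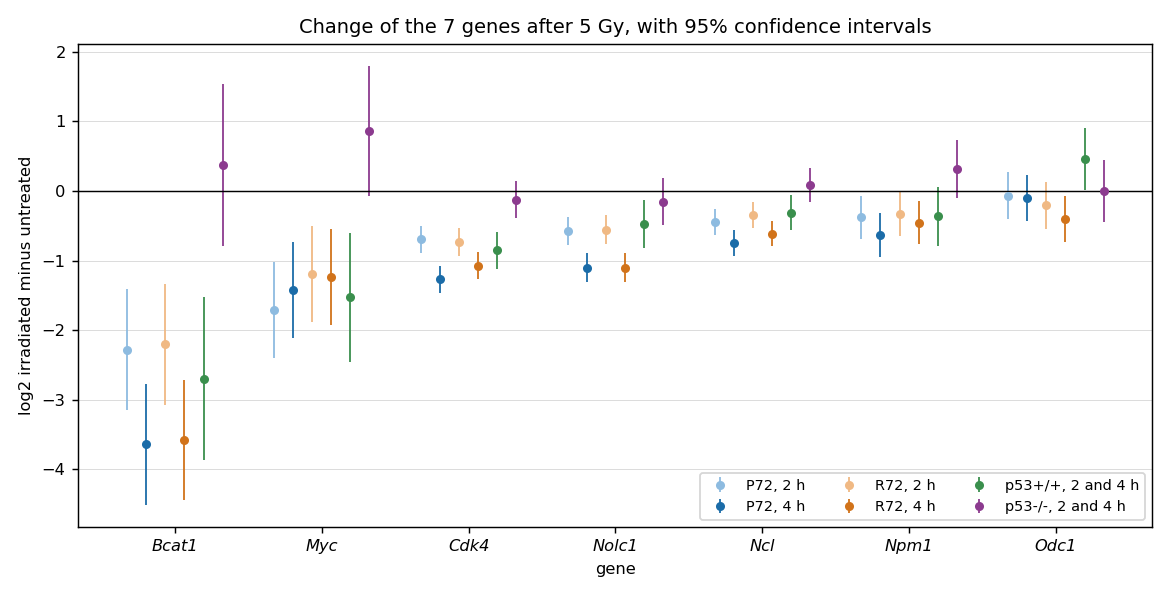
Log2 difference of irradiated minus untreated for the 7 genes (points) with 95% confidence intervals from the limma fit (lines), for P72 and R72 at 2 h and 4 h and for p53+/+ and p53-/- with 2 h and 4 h averaged. On this scale Bcat1 and Myc lie lowest in P72, R72 and p53+/+, and in p53-/- every interval of the chosen probes includes 0.

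Whether the codon 72 form changed the response of these genes was tested directly. None of the 7 genes differed between P72 and R72 at 0 h, 2 h or 4 h (limma, 0 of 7 at each time, where 0.906%, 1.28% and 1.25% of all genes differed in either direction). On the chosen probes the adjusted p-values from limma ran from 0.956 to 0.999, from 0.479 to 0.934 and from 0.265 to 0.976. Their unadjusted p was under 0.05 for no gene at 0 h or 2 h and for Odc1 at 4 h. Some probes that were not chosen lay further from 0, and none passed the adjusted test. At 0 h an Ncl probe gave 0.33 ± 0.09 (limma, adjusted p = 0.122) and a Nolc1 probe 0.39 ± 0.16. At 2 h an Odc1 probe gave 0.25 ± 0.11. The difference between the responses passed for none of the 7 chosen probes at 2 h or 4 h, by adjusted or unadjusted p. Of all genes 0.00487% and 0% passed the adjusted test. No other probe of the 7 genes passed it, though some lay further from 0. An Odc1 probe gave 0.42 ± 0.16 at 2 h and 0.38 ± 0.16 at 4 h. At 4 h a Nolc1 probe gave -0.50 ± 0.23 and an Ncl probe -0.32 ± 0.13.

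The intervals show how much these arrays could have hidden. For Myc, P72 minus R72 was -0.29 at 2 h, with a 95% interval from -0.98 to 0.40, and 0.03 at 4 h, from -0.66 to 0.72. For Bcat1 it was 0.10 at 2 h, from -0.77 to 0.97, and 0.12 at 4 h, from -0.75 to 0.99. Differences at 1 time of up to about the size of 1 doubling are therefore inside the intervals of these 2 genes. Cdk4 was bounded more closely, at -0.14 at 4 h with an interval from -0.34 to 0.06. The difference between the responses was bounded less closely. Over the 7 genes its widest interval bound lay 1.49 from 0 at 2 h and 1.29 at 4 h.

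Among the chosen probes, that of Odc1 at 4 h was the nearest to a difference. The 4 P72 arrays lay between 3.73 and 3.94 and the 4 R72 arrays between 3.33 and 3.52, with no overlap, where P72 was higher without overlap for 5.04% of all genes. The difference was 0.40 ± 0.16 (limma, unadjusted p = 0.0214, adjusted p = 0.265), and it is reported as not passing the test. The difference between the 2 responses of Odc1 was 0.31 ± 0.23, from -0.16 to 0.78.

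**Figure D4:**
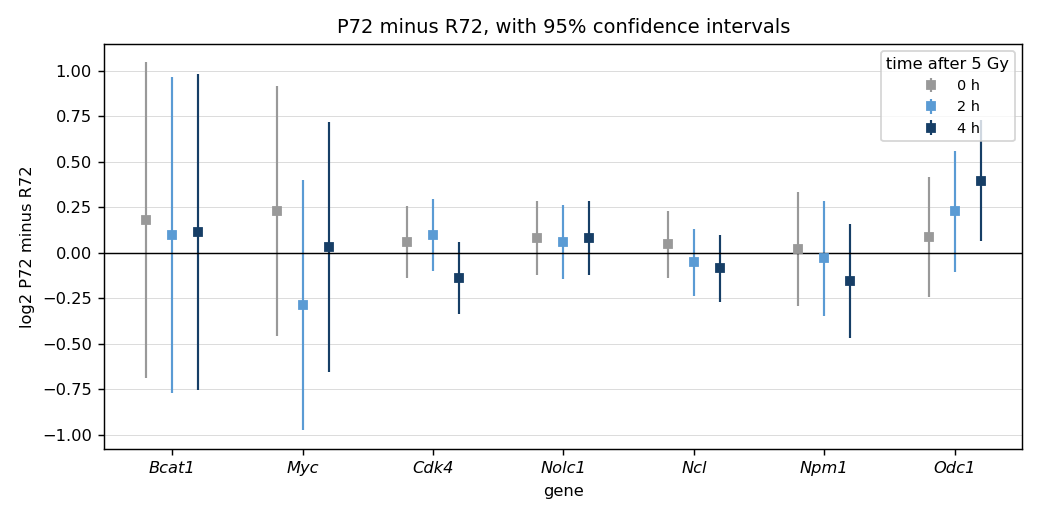
Log2 difference of P72 minus R72 for the 7 genes at 0 h, 2 h and 4 h after 5 Gy (squares) with 95% confidence intervals from the limma fit (lines). Among the chosen probes drawn, only the interval of Odc1 at 4 h, from 0.07 to 0.73, leaves out 0, and its adjusted p from limma was 0.265.

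The p53+/+ and p53-/- arrays show the genes with and without the p53 gene. Untreated, Myc was 1.45 and 1.90 in p53+/+ and 1.77 and 1.79 in p53-/-. After irradiation it was 0.14 at 2 h and 0.15 at 4 h in p53+/+, and 2.75 and 2.54 in p53-/-. The irradiated p53+/+ arrays lay below all untreated ones and the irradiated p53-/- arrays above them. With 2 h and 4 h averaged, irradiated minus untreated was -1.53 ± 0.45 in p53+/+ and 0.86 ± 0.45 in p53-/-, the latter with an interval from -0.07 to 1.80. Within the slide that held irradiated and untreated arrays together, the values were -1.31 and 0.88.

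Bcat1 was -1.60 and -1.57 in untreated p53+/+, -3.82 at 2 h and -4.74 at 4 h. In p53-/- it was -2.50 and -2.43 untreated, -1.18 at 2 h and -3.00 at 4 h. The irradiated p53-/- arrays lay on either side of the untreated ones. Cdk4 was 2.19 and 2.29 in untreated p53+/+, 1.76 at 2 h and 1.01 at 4 h, against 2.41 and 2.45, 2.37 and 2.23 in p53-/-. Of the 7 genes, 4 were lower in p53+/+ after irradiation by adjusted p (10.6% of all genes) and none in p53-/- (0.336%). Nothing is read from these counts or from their contrast, since the genes were chosen for the fall. In p53-/- the 95% interval of every one of the 7 chosen probes included 0. The other Myc probes gave 0.90 ± 0.36 and 1.01 ± 0.49 in p53-/-.

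Between untreated p53+/+ and p53-/- thymocytes none of the 7 genes passed the test (limma, 0 of 7 by adjusted or unadjusted p, where 0.706% of all genes passed in either direction). Bcat1 came nearest, 0.88 ± 0.56 higher in p53+/+ (adjusted p = 0.62). After irradiation 5 of the 7 were lower in p53+/+ than in p53-/- (8.79% of all genes were). The irradiated p53+/+ arrays are among those on which the fall of Myc and Bcat1 was seen. Both are in the count of 5, nothing is read from their place in it, and they are described with no p. Myc was lower by 2.50 ± 0.45, that is 5.66-fold, and Bcat1 differed by -2.19 ± 0.56. Cdk4 differed by -0.92 ± 0.13 (limma, adjusted p = 3.46e-05). Npm1 differed by -0.58 ± 0.20 (adjusted p = 0.0442) and Ncl by -0.38 ± 0.12 (adjusted p = 0.0271). The arrays of the 5 genes did not overlap, as for 28.4% of all genes in this direction. The 3 Myc probes gave -2.73 to -2.03.

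Nolc1 and Odc1 did not pass, and their probes disagreed. The chosen Nolc1 probe gave -0.23 ± 0.17 (limma, adjusted p = 0.331), and the other one -1.20 ± 0.22 (adjusted p = 0.000925). The chosen Odc1 probe gave 0.45 ± 0.22 (adjusted p = 0.13), with levels of 4.35 and 4.18 in irradiated p53+/+ against 4.02 and 3.59 in p53-/-. The other 2 Odc1 probes were 0.54 ± 0.14 and 0.80 ± 0.15 higher in irradiated p53+/+ and passed. Odc1 therefore stood on the other side of 0 from the other 6 genes in this comparison on each of its probes.

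The difference between the p53+/+ and the p53-/- response was -3.07 ± 0.79 for Bcat1 and -2.39 ± 0.64 for Myc; it contains the fall in p53+/+ for which they were chosen, and is a description. For Cdk4 it was -0.73 ± 0.18 (limma, adjusted p = 0.0212). By count 3 of the 7 genes were past the threshold, these 2 included, and 2.21% of all genes were lower. Ncl and Npm1 had an unadjusted p of 0.0273 each and an adjusted p of 0.167. Probes that were not chosen also passed, 2 of Odc1 at 0.66 ± 0.19 and 0.92 ± 0.21 and 1 of Nolc1 at -1.09 ± 0.32 (adjusted p = 0.0493, 0.0144 and 0.0485). These tests rest on 1 array at each time, whose spread is taken from the other groups. They also rest on a sex split that runs with irradiation in p53+/+, and on p53+/+ arrays that also gave the described fall. In the irradiated comparison the split runs with genotype as well. Xist was 5.50 on both irradiated p53+/+ arrays and -8.82 and -7.20 on the irradiated p53-/- ones. The calls depended on single arrays. Without the p53+/+ array at 4 h, the irradiated comparison gave -0.54 for Cdk4 and -0.26 for Ncl, and without that at 2 h -1.29 and -0.51. Npm1 ran from -0.70 to -0.47 there when any 1 array was left out. A fit that leaves 1 irradiated array of a genotype is given by effect size. Without the p53-/- array at 2 h, Bcat1 in the irradiated comparison was -1.28 and without that at 4 h -3.10. Without any 1 array Myc ran from -2.61 to -2.39 in the irradiated comparison, which is a description. Cdk4 did not keep its call there without the p53+/+ array at 4 h. Of the 7 genes 2 passed in that comparison with the normexp correction and 3 with slide as a block. Over the other settings Bcat1 ran from -2.57 to -0.75.

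The wider program was read from 7 gene lists, which do not contain the 7 genes and were tested over all genes. The lists were chosen with earlier results of these data known, so their counts and p-values describe these arrays and are no independent test. In P72 4.81% of all genes fell and 9.63% rose at 2 h, and 20.7% and 35.9% at 4 h. In R72 6.87% fell and 6.16% rose at 2 h, and 16% and 28.8% at 4 h. The list counts below are read beside these shares. Of 47 genes of the nucleolus and of ribosome assembly, none rose and 30 fell in P72 at 2 h and 43 at 4 h, with a median difference of -0.72 at 4 h beside 0.11 over all genes. In R72 the counts were 30 and 43, with a median of -0.62 at 4 h. In P72 at 4 h Gnl3 (nucleostemin) fell by 1.46 ± 0.10, Polr1b, a subunit of RNA polymerase I, by 1.20 ± 0.10, Mrto4 by 1.18 ± 0.11 and Nhp2, a box H/ACA protein, by 1.15 ± 0.11 (limma, adjusted p from 6.34e-10 to 7.35e-08). In R72 Rrp12, an export factor of pre-ribosomes, fell by 1.83 ± 0.17 and Mybbp1a by 1.01 ± 0.09. The members Ncl, Npm1 and Nolc1, at -0.74, -0.64 and -1.10 in P72, lie within the spread of this list.

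Of 34 metabolic and other Myc targets, 17 fell and none rose in P72 at 2 h, and 27 fell and 1 rose at 4 h. In R72 21 fell at 2 h, and 26 fell and 1 rose at 4 h. Shmt2, the mitochondrial serine hydroxymethyltransferase, fell by 1.56 ± 0.09 in P72 and by 1.55 ± 0.09 in R72 at 4 h. Gart, of purine synthesis, fell by 1.43 ± 0.10 and 1.21 ± 0.10, and Apex1, the abasic site nuclease, by 1.43 ± 0.11 and 1.45 ± 0.11. Impdh2, of guanine nucleotide synthesis, fell by 0.92 ± 0.08 in P72, and the glycolytic enzyme Eno1 by 0.98 ± 0.09 in R72. Of 13 translation factors 10 fell in P72 and 9 in R72 at 4 h and none rose; Eif5a, whose hypusine is made from a polyamine, fell by 1.08 ± 0.09 and 0.94 ± 0.09.

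Around Odc1, 6 of 9 polyamine enzymes and regulators fell and 2 rose at 4 h in each line. Srm, the spermidine synthase, fell by 2.13 ± 0.16 in P72 and 2.02 ± 0.16 in R72, and Azin1, the antizyme inhibitor that shields ornithine decarboxylase, by 0.69 ± 0.07 and 0.65 ± 0.07. Smox, spermine oxidase, rose by 0.42 ± 0.09 in R72. Around Bcat1, of 10 branched-chain amino acid enzymes 1 fell and 1 rose in P72 and 2 fell in R72 at 4 h, where 20.7% of all genes fell and 35.9% rose in P72 and 16% and 28.8% in R72. Dld, shared by several dehydrogenase complexes, fell by 0.32 ± 0.07 and 0.26 ± 0.07.

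Of 19 genes of the Myc network, 5 fell and 4 rose in P72 and 6 fell and 3 rose in R72 at 4 h, which is read beside the same shares of all genes. Pim1, a kinase that acts with Myc, rose by 1.15 ± 0.09 in P72 and 0.80 ± 0.09 in R72, and Mxd1, which competes with Myc for Max, by 1.13 ± 0.13 and 0.84 ± 0.13. Ruvbl1 and Ruvbl2, helicases found with Myc, fell by 0.77 ± 0.09 and 0.84 ± 0.07 in P72. Around Cdk4, 18 of 19 listed cyclins, inhibitors and targets were measured. Of these 6 rose and 7 fell in P72 and 4 rose and 6 fell in R72 at 4 h. Beside these counts, 35.9% of all genes rose and 20.7% fell in P72, and 28.8% and 16% in R72. The inhibitor Cdkn1a rose by 4.48 ± 0.24 and 3.68 ± 0.24, Ccne1 (cyclin E1) fell by 1.14 ± 0.11 and 1.34 ± 0.11, E2f1 fell by 0.92 ± 0.11 and 0.94 ± 0.11, and Rb1 rose by 0.55 ± 0.09 and 0.53 ± 0.09.

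**Figure D5:**
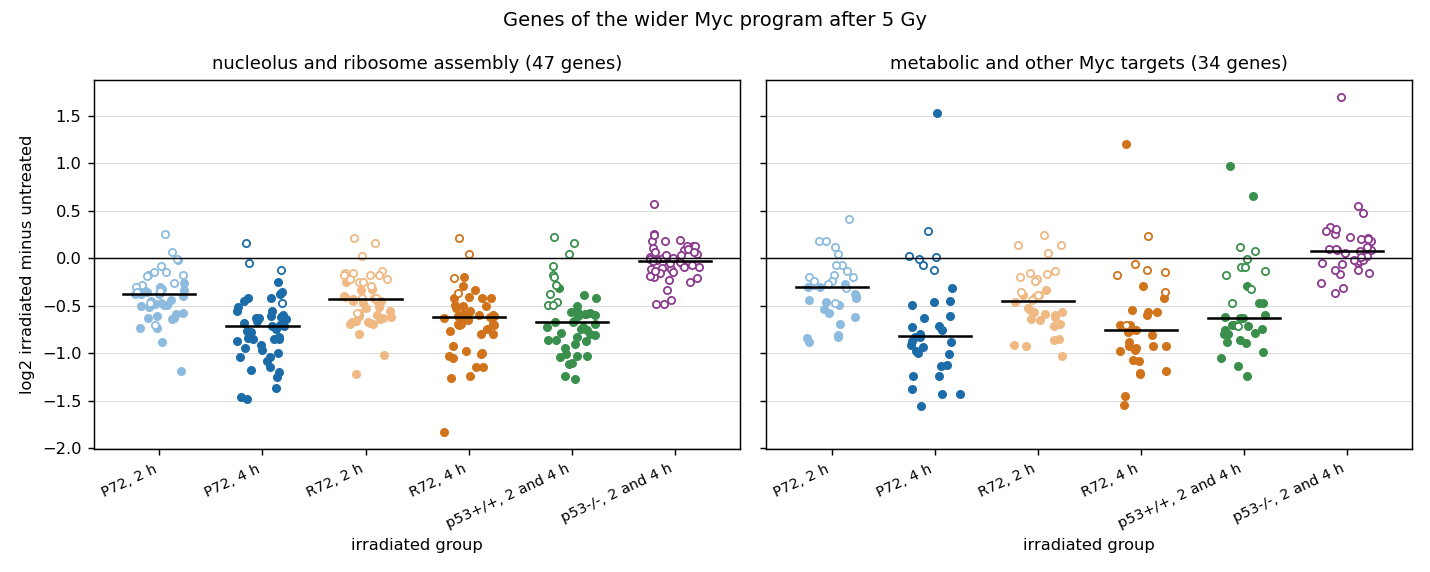
Log2 difference of irradiated minus untreated for each of the 47 genes of the nucleolus and ribosome assembly (left) and the 34 metabolic and other Myc targets (right), in 6 irradiated groups. Points are genes, filled where the adjusted p was under 0.05, and bars are medians; 43 nucleolar genes are filled and lower at 4 h in P72 and in R72, and none in p53-/-.

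Over the 150 genes of the 7 lists, P72 and R72 differed for 1 gene at 0 h, 2 at 2 h and 2 at 4 h. Of all genes 0.906%, 1.28% and 1.25% did. Slc1a5, a glutamine transporter, was higher in P72 at all 3 times, by 0.60 ± 0.06, 0.72 ± 0.06 and 0.60 ± 0.06 (limma, adjusted p at most 1.52e-05), before as after irradiation. E2f1 was 0.44 ± 0.11 higher in P72 at 2 h, and E2f2 differed by -0.65 ± 0.13 at 4 h. The counts at 2 h depend on single arrays: 67 list genes passed in P72 at 2 h and 42 without P72 0 h replicate 4. From 2 h to 4 h 39 passed in R72, and 22 without R72 4 h replicate 2.

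In the p53+/+ arrays 36 of the 47 nucleolar genes and 22 of the 34 metabolic targets fell after irradiation and 0 and 2 rose. Of all genes 10.6% fell and 13% rose. In p53-/- none of either list passed the adjusted test in limma, where 1.05% of all genes did. By unadjusted p under 0.05 in limma, 2 and 4 genes passed. Compared directly after irradiation, 32 nucleolar genes and 22 metabolic targets were lower in p53+/+ (8.79% of all genes were), and 18 and 15 had a lower response (2.21%). The sex split runs with genotype on these irradiated arrays, and the 2 cannot be told apart. Gnl3 differed by -1.12 ± 0.13 and Shmt2 by -1.15 ± 0.13 (adjusted p = 3.53e-06 and 9.94e-07). Srm differed by -1.37 ± 0.22 and Apex1 by -1.12 ± 0.15. Without the p53+/+ array at 4 h the count of nucleolar genes lower after irradiation in p53+/+ was 11 and that of metabolic targets 4, and the counts against p53-/- were 7 and 2.

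Over all promoter windows of a list, CACGTG was present in 43.8% of 16 windows of translation factors, 25.6% of 39 of metabolic targets, 21.6% of 51 of nucleolar genes and 20.8% of 24 of the Myc network, beside the 7.15% of all windows. Among polyamine enzymes it was 11.1% of 9, among Cdk4 partners 13.6% of 22, and no window of 11 of the branched-chain amino acid enzymes held it. These are descriptions of lists that were drawn up around Myc and the 7 genes, some of them by pathway or partner and not as Myc targets.

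The genes whose levels ran closest to Myc over the 12 group means were sought by the root mean square difference after each gene was centred, over 20527 genes. Gzma, a cytotoxic granule protease, was closest at 0.29, followed by a transcript with the array name NAP098046-001 at 0.45, Esm1 at 0.47, a transcript named TC1419452 at 0.48 and the somatostatin receptor gene Sstr2 at 0.48. Gzma stood at 2.50, 1.03 and 0.69 in P72 at 0 h, 2 h and 4 h, and at 2.42, 3.98 and 2.81 in p53-/-. Closest to Bcat1 were Shmt1, the cytosolic serine hydroxymethyltransferase, at 0.48, the deoxycytidylate deaminase gene Dctd at 0.53, the transcript AK041859 at 0.62, the uracil glycosylase gene Ung at 0.63 and Srm at 0.65. These genes were found in the same 12 means, so the likeness is a description.

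Some markers of other cells were higher after irradiation, from 2 h in P72, where 9.63% of all genes rose. At 2 h 4 of 8 thymic epithelial markers rose in P72 (Krt8 by 1.25 ± 0.23, Krt18 by 1.20 ± 0.23, Aire by 1.34 ± 0.38 and Krt5 by 1.12 ± 0.35), with 3 of 8 dendritic cell markers (Flt3, Itgax and Zbtb46). In R72 at 2 h the median difference of these lists was 0.05 and 0.37, which is not the same measure as the counts given for P72. As sums, taken as below, the epithelial markers ran from 16.6 to 25.7 in P72 and from 17.2 to 23.1 in R72 at 2 h. The dendritic cell sums were 1.31 to 1.92 untreated and 1.96 to 2.55 at 2 h in P72. In R72 they were 1.52 to 2.05 and 1.49 to 2.24. Summed on the linear scale relative to the 75th percentile, 9 neutrophil markers ran from 35.2 to 62.7 on untreated P72 arrays and from 71.0 to 146 at 4 h, and all 9 rose; in R72 1 of 9 rose, and the sums were 68.3 to 87.8 and 67.5 to 138. The 8 thymic epithelial markers summed to 5.41 to 13.6 and 31.9 to 41.3 in P72, where 6 rose, and to 16.1 to 19.9 and 30.6 to 51.5 in R72, where 3 rose. Of the macrophage markers 5 of 10 rose in P72 and 2 in R72, and of the dendritic cell markers 5 of 8 and 4 of 8. Of 9 fibroblast and endothelial markers 3 rose in each line, of 9 early thymocyte markers 5 rose and 1 fell in P72 and 3 rose and 1 fell in R72, and of 6 B cell markers 1 rose and 1 fell in P72 and 1 rose and 2 fell in R72. Beside these counts at 4 h, 35.9% of all genes rose and 20.7% fell in P72, and 28.8% rose and 16% fell in R72. Counts near these shares are not read as a change of a cell type. The 3 erythroid markers measured had a median difference of 0.10 in P72 and -0.38 in R72 at 4 h. In p53+/+ the epithelial sum was 17.5 on both untreated arrays and 33.2 at 4 h. The neutrophil sum there was 29.5 and 30.2 untreated and 89.1 at 4 h. In p53-/- the epithelial sum was 18.3 and 18.9 untreated and 10.7 at 4 h, and the neutrophil sum 39.3 and 39.6, then 48.6. The early thymocyte sum went from 5.19 and 5.54 to 11.1 at 4 h in p53+/+, and from 6.80 and 7.11 to 5.46 in p53-/-. Each of these values at 4 h is 1 array. The sum of 12 thymocyte markers lay between 854 and 953 on untreated P72 arrays and between 899 and 986 at 4 h. In R72 it lay between 856 and 953 untreated, 686 and 968 at 2 h, and 973 and 1004 at 4 h. The R72 arrays at 4 h thus did not overlap the untreated ones. In p53-/- the sum was 889 and 948 untreated, 746 at 2 h and 822 at 4 h. In p53+/+ the untreated median was 941, with 879 at 2 h and 940 at 4 h. Each irradiated value of these 2 genotypes is 1 array. The part of these markers in the levels of Myc and its targets at 2 h and at 4 h was not tested.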

How the data were processed

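RNA of pooled thymocytes was labelled with Cy3 and read on 32 one-colour Agilent arrays of 1 design. The deposited scanner files hold the processed intensity of each spot, background-subtracted by Agilent Feature Extraction (version 9.5.3.1 per the file headers, 9.5.3 per the submitters' processing notes). The authors also deposited a table of log2 values, made in a way not given in the sources used here and used only as an alternative. Flagged spots (0.223%) were left out and no spot was saturated. From the log2 intensity, each array's own 75th percentile was subtracted. That percentile ran from 268 to 1031 units, and precision is limited by how few arrays a group has. Genes needed a probe well above background on at least 4 arrays; a gene was read from its brightest such probe by mean level.

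Differences were fitted with limma 3.58.1 in R 4.3.3 (lmFit, eBayes, two-sided, Benjamini-Hochberg over all genes tested, threshold 0.05), on 24 arrays for P72 and R72 and on all 32 for p53+/+ and p53-/-, with 2 h and 4 h averaged; the fits were tested on simulated data. Errors are standard errors of the fit. The members and lists were chosen with earlier results of these data known. Named from each list were genes among the 4 with the smallest p in the contrast described; for Myc and Bcat1 the 5 nearest patterns were named, and Trp53 and Cdkn1a were checks. The sex-linked genes were named after their values were seen. Nothing says whether replicate pools shared litters or days, so p-values measure the spread between these pools. Slides, replicates, scaling, background correction and filters were varied as given in the closing section. Promoter windows came from RefSeq tables of GRCm38.p6; probe coordinates stayed in mm7.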

Additional observations from a re-analysis of the deposited data

Results flagged for a closer look

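Of 42 groups of 4 arrays checked among the 7 genes, 2 held an array far from the others, and chance sets about 1 in 20 apart. Bcat1 on R72 0 h replicate 1 was -3.06, below the other untreated R72 arrays at -1.52 to -1.36, and Ncl on R72 4 h replicate 3 was 5.47, above the others at 5.34 to 5.35. The response to irradiation was lower in p53+/+ than in p53-/- by the interaction term in limma, with a log2 difference of -3.07 for Bcat1, -2.39 for Myc and -0.73 for Cdk4. For Bcat1 and Myc this term contains the fall for which they were chosen and is a description. None of the 3 passed the adjusted test with the normexp correction or without the p53+/+ array at 4 h, and the sex-linked genes split p53+/+ arrays the same way as irradiation.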

How the results depend on the processing

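Values are log2 differences, and counts are list genes or, where said, members past the adjusted p of 0.05; unless a value or the construction of a setting shows it, the cause of a shift was not tested. Apart from settings that leave out 1 array, 580 of 669 values of counts and main differences stayed on the same side, 86 moved and 3 reversed; of 927 other values 815 stayed, 72 moved, 16 lost their call and 24 reversed. Depth is not recorded on arrays; Bcat1, dim at 4 h, is limited by its background.

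The normexp correction lowered list counts to 20 in P72 at 2 h (67 in the main setting), 30 from 2 h to 4 h (84), 11 in R72 at 2 h (72), 68 at 4 h (108) and 9 from 2 h to 4 h (39). In p53+/+ it gave 43 list genes (86), 19 nucleolar and 12 metabolic, and in p53-/- 1. Against p53-/- after irradiation it gave 2 members, 17 nucleolar and 11 metabolic genes, and for the response difference 0 members, 4 nucleolar and 4 metabolic genes. Bcat1 was -0.999 and -0.76 in P72 at 2 h and 4 h, 0.24 between them, -1.33 and -1.02 in R72, 0.32 between them, and -1.03 in p53+/+. Its P72 minus R72 difference at 0 h was -0.14 and its response differences 0.33 and 0.25 at 2 h and 4 h. With the background capped, Bcat1 was -1.01 and -0.99 in P72 and 0.015 between the times, -1.12, -1.20 and -0.0801 in R72, -1.04 in p53+/+, and 0.11 and 0.20 for the response differences. In the authors' deposited table Bcat1 was -1.51, -2.15 and -0.65 in P72 (2 h, 4 h and 4 h minus 2 h), -1.38, -2.00 and -0.62 in R72, -1.77 in p53+/+, and -0.022 and -0.046 for P72 minus R72 at 2 h and 4 h; 4 list genes passed in p53-/-.

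With quantile normalization Bcat1 was -4.50 in P72 and -4.25 in R72 at 4 h, -2.14 and -2.00 from 2 h to 4 h and -0.071 for P72 minus R72 at 4 h, and 1 list gene passed in p53-/-. With median scaling Myc was -2.05 and Bcat1 -4.26 in P72 at 4 h, P72 minus R72 at 4 h was -0.11 for Myc and -0.032 for Bcat1, 117 list genes passed in R72 from 2 h to 4 h and 1 in p53-/-, and the response difference passed for 5 members, 36 nucleolar and 23 metabolic genes. With the mean over the probes of a gene it passed for 5 members. With no filter on dim probes 1 list gene passed in p53-/-, and the response difference passed for 10 nucleolar and 8 metabolic genes; with every array required to be above background, 4 list genes passed in p53-/-.

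Fitted on only the groups compared, with fewer arrays, 30 list genes passed in R72 at 2 h, 14 from 2 h to 4 h, 0 in p53+/+ (0 nucleolar, 0 metabolic) and 0 in p53-/-, and the response difference passed for 8 nucleolar and 6 metabolic genes; irradiated p53+/+ against p53-/- could not be fitted so. With slide as a fixed block the Bcat1 response differences were 0.048 and 0.36, 1 list gene passed in p53-/-, 3 members, 15 nucleolar and 14 metabolic genes passed against p53-/- after irradiation, and the response difference passed for 5 nucleolar and 4 metabolic genes. As a random block the Bcat1 response difference at 4 h was 0.11 and 4 list genes passed in p53-/-.

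Pairs of replicates left fewer arrays; replicates 1 and 3 and replicates 2 and 4 were chosen after seeing the data. List counts in P72 at 2 h, P72 from 2 h to 4 h, R72 at 2 h and R72 from 2 h to 4 h were 12, 33, 13 and 1 with replicates 1 and 2, 10, 3, 5 and 0 with 1 and 3, 4, 12, 6 and 0 with 2 and 4, and 22, 26, 40 and 10 with 3 and 4. In R72 at 4 h they were 60 (26 nucleolar) with 1 and 3 and 67 with 2 and 4. P72 minus R72 of Myc was 0.015 at 2 h with 1 and 2, and -0.0045 and -0.0801 at 4 h with 2 and 4 and with 3 and 4. That of Bcat1 was -0.21 and -0.16 at 2 h with 2 and 4 and with 3 and 4, and -0.33 and -0.11 at 4 h with 1 and 2 and with 2 and 4. Its response difference was 0.026 with 1 and 2 and 0.15 with 1 and 3 at 2 h, and 0.082 with 1 and 3 and 0.53 with 3 and 4 at 4 h.

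Nothing says that the replicate numbers pair the samples, but P72 and R72 arrays with the same number were more alike. Over 60 such pairs the correlation of deviations ran from -0.27 to 0.53, with a median of 0.12, and 35 were over 0.1. Over 180 pairs with different numbers the median was -0.031, and 20 were over 0.1. Of 24 arrays 21 were closest to their own number, a hint from the data and not the design. The sex split also runs with these numbers, and its part in the likeness was not tested. With the replicate block list counts were 74 in P72 at 2 h and 82 in R72, 5 members passed after irradiation against p53-/-, and the list count in p53-/- went from 2 to 0, the one count that moved by more than 1.5 times.

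Leaving out each array in turn, list counts ran from 42 to 75 in P72 at 2 h, from 22 to 43 in R72 from 2 h to 4 h, from 22 to 88 in p53+/+ (nucleolar 11 to 38, metabolic 4 to 23) and from 0 to 6 in p53-/-. Against p53-/- after irradiation 1 to 6 members, 7 to 36 nucleolar and 2 to 24 metabolic genes passed, and for the response difference 0 to 3, 3 to 28 and 0 to 22; the lowest of each came without the p53+/+ array at 4 h. Differences that changed sign were P72 minus R72 of Bcat1 (-0.23 to 0.35 at 0 h, -0.10 to 0.44 at 2 h, -0.18 to 0.30 at 4 h) and of Myc (-0.54 to 0.035 at 2 h, -0.16 to 0.23 at 4 h), the response differences of Bcat1 (-0.28 to 0.33 at 2 h, -0.36 to 0.35 at 4 h) and of Myc at 4 h (-0.39 to 0.014), Myc between untreated p53+/+ and p53-/- (-0.33 to 0.12), in p53-/- after irradiation Bcat1 (-0.53 to 1.29), Nolc1 (-0.38 to 0.073), Odc1 (-0.21 to 0.21) and Ncl (-0.028 to 0.20), Myc in R72 from 2 h to 4 h (-0.29 to 0.29), and Odc1 in P72 (-0.16 to 0.041 at 2 h, -0.19 to 0.012 at 4 h and -0.0898 to 0.015 from 2 h to 4 h).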
